A study of Mus musculus with 28 samples.

Results

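The 46 genes described here encode the subunits, activators, inhibitor and dedicated assembly chaperones of the mouse proteasome. They are every gene of the mRNA table whose symbol is Psm, a letter from a to g and a number, out of 34839 genes listed, without the inducible subunits Psmb8 and Psmb9. The study concerns the meiotic roles of the domains of PRDM9, an enzyme that methylates histone H3 and sets where recombination starts. Its mRNA part holds 5 libraries from testis of C57BL/6 mice, of which 2 are Prdm9 knockout (KO, Prdm9-/-), 2 are Hop2 KO (Hop2-/-, which lack a cofactor of meiotic strand exchange) and 1 is adult wild type. No age is given for the knockouts. Whether the libraries of a genotype stem from different animals is not stated in the labels, so a p-value here reflects variation among libraries that may be technical. A further library, from testis of C57BL/6 mice whose PRDM9 lacks the KRAB domain (Prdm9 K/K), mapped the single-stranded DNA at meiotic double-strand breaks (SSDS) and is used for the start sites of the same genes.

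The proteasome degrades proteins that carry ubiquitin chains. Its barrel-shaped core particle is built from outer rings of alpha subunits (Psma genes) and inner rings of beta subunits (Psmb genes), some of which cut peptide bonds. The regulatory particle caps the core, and its ATPases (Psmc genes) unfold the substrate while its other subunits (Psmd genes) hold the complex together, bind ubiquitin and remove it. Alternative caps (Psme genes) open the core without ATP. Germ cells carry their own form, in which PSMA8 takes the place of PSMA7 in the alpha ring, and the cap PA200, the product of Psme4, is known in mouse for the removal of histones in spermatids.

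Values are the deposited abundance per transcript length, which the authors called TPM. The columns sum to between 825459 and 953598 in the knockouts and to 1622660 in wild type, so the values had been rescaled between libraries, and read depth is unknown. Changes are on the log2(value + 1) scale, knockout minus wild type, tested with limma over all genes with a mean of at least 1 and adjusted by Benjamini-Hochberg at a threshold of 0.05. The fit takes the lone wild-type sample to be as variable as the knockouts. An exact permutation test of 4 libraries against 1 cannot give a p below 0.2, and of 2 against 2 none below 0.333. Where 4 knockout values are listed, they stand for Prdm9 KO replicates 1 and 2 and then Hop2 KO replicates 1 and 2. Of the 46 members, 45 were tested, and each of these was at 9.44 or more in every library. Psmb11, the catalytic subunit of the thymus cortex, lay between 0.0725 and 0.339 in the 5 libraries and was not tested.

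Each knockout had proteasome genes above and others below wild type. With the values as deposited, in Prdm9 KO 16 of 45 members rose and 14 fell, where 34.6% of all 16261 genes tested rose and 39.4% fell. In Hop2 KO, 22 rose and 12 fell, where 35% of all genes rose and 39.5% fell. In all, 30 and 34 of 45 members passed, where 74.1% and 74.5% of all genes did, shares near the background. The median change over the members was 0.20 and 0.38, against medians of -0.08 and -0.06 over all genes. Wild type lay above all 4 knockout libraries for 15 tested members and below all 4 for 24, where 46.9% and 44.2% of all genes did so. In these whole-testis libraries, fewer cells of a type and less RNA per cell cannot be told apart. Both comparisons use the same wild-type library, so their results are not independent of each other.

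The direction of small changes depends on how the libraries are scaled. The median change of all genes moves from the values above to 0.77 in Prdm9 KO and 0.68 in Hop2 KO when each column is rescaled to 1000000, to 0.65 in both with quantile normalization, and to 0.18 and 0.19 with median-ratio scaling. Rescaled columns gave 31 members higher and 7 lower in Prdm9 KO, where 51.7% of all 16038 genes tested were higher and 26.6% lower, and 31 and 8 in Hop2 KO, where 49.7% and 27.9% were. Quantile normalization gave 33 and 7 in Prdm9 KO (49.8% and 29.1% of all 16315 genes tested) and 35 and 7 in Hop2 KO (49.7% and 29.3%). Median-ratio scaling gave 22 and 10 in Prdm9 KO (39.2% and 35.1% of all 16171 genes tested) and 26 and 8 in Hop2 KO (39.5% and 35.1%). Counts and changes below are for the deposited values unless another scaling is named. The shares of all genes given here are the background for the counts of role groups and gene lists below. In all 4 scalings and both knockouts, 16 members rose and 7 fell, where 33.7% and 25.8% of the 15959 genes tested in every scaling did. The 7 that fell are Psma6, Psma8, Psmc2, Psmc3, Psmd8, Psme4 and Psmf1. The 16 that rose are Psma1, Psma2, Psma5, Psma7, Psmb1, Psmb2, Psmb3, Psmb10, Psmc6, Psmd1, Psmd5, Psmd7, Psmd14, Psme1, Psme2 and Psmg3. For 11 other members the sign was not the same over all 4 scalings and both knockouts. Leaving out 1 knockout library ended the call of Psmc6, Psmd1 or Psmd7 in a comparison and of no other member that held in all 4 scalings. Among the remaining members Psma4, Psmb4, Psmb5, Psmb6, Psmc4, Psmc5, Psmd2, Psmd9, Psmd10, Psmd11, Psmg1 and Psmg2 each lost a call that way, and over all these cases the limma adjusted p lay between 0.0502 and 0.142.

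**Figure D1:**
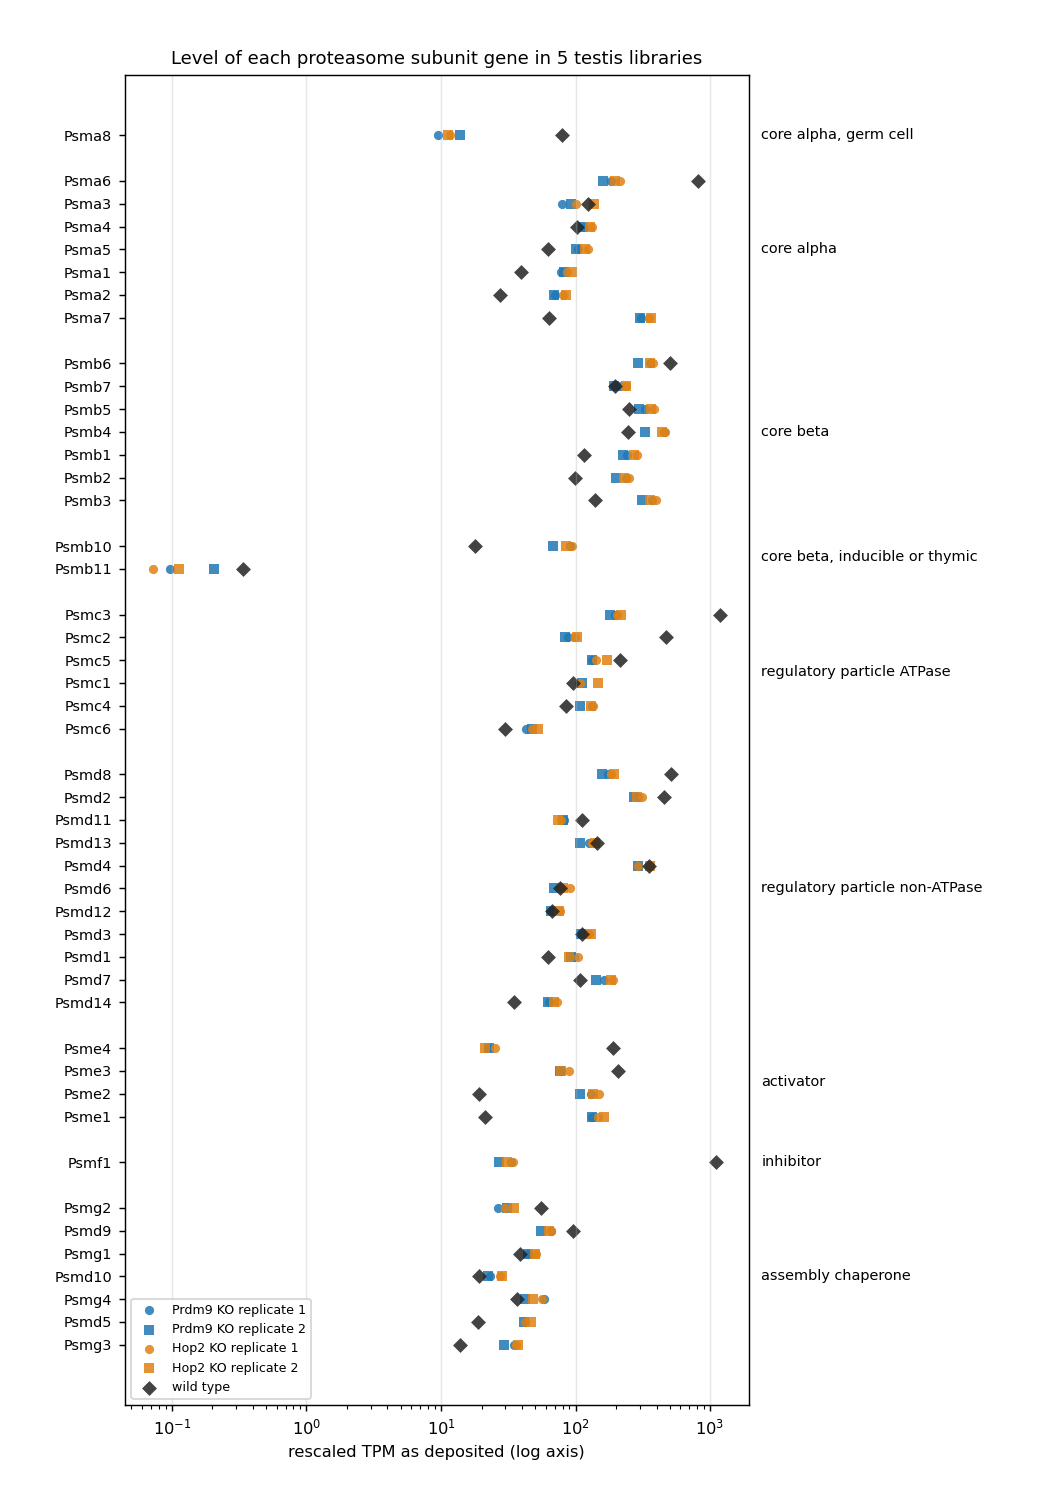
Deposited value of each of the 46 proteasome genes (x axis, rescaled TPM, log axis) in the 5 testis libraries, grouped by role. Circles and squares are knockout replicates and diamonds the wild-type library. Psmf1, Psmc3 and Psma6 show the wild-type diamond far to the right of the knockouts, at 1102, 1194 and 806, whereas Psma7, Psme1, Psme2 and Psmb10 show it far to the left.

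Marker genes of the testis cell types differed between the knockouts and wild type. The wild type is adult and the knockouts have no stated age, so a difference in age cannot be told apart from genotype. All 20 tested spermatid markers fell in both knockouts, and their summed value was 72.3 to 116 in the knockouts and 146900 in wild type. All 17 genes switched on at pachytene fell, with sums of 295 to 359 against 22830. Of 15 early meiotic prophase genes, 3 rose and 6 fell in Prdm9 KO and 3 rose and 7 fell in Hop2 KO, with sums of 648 to 978 against 2432. Of 13 spermatogonia markers, 9 rose in both knockouts, 1 fell in Prdm9 KO (Id4) and 2 fell in Hop2 KO (Id4 and Gfra1), with sums of 688 to 835 against 228. Sertoli cell markers rose for 13 and 14 of 15 (8990 to 13730 against 2177), Leydig cell markers for 9 of 10 in both knockouts (26500 to 73770 against 5959) and macrophage markers for 13 and 12 of 13 (661 to 1118 against 116.5). Single genes lead some sums. Insl3, the Leydig marker that did not pass, was 31180, 44710, 21030 and 68220 in the knockouts against 5124. Clu, a Sertoli marker that did not pass, was 4686, 6076, 3809 and 7713 against 1239. Odf2 was 48.1, 54.15, 47.95 and 52.0 of the knockout spermatid sums, and Mael 1153 of the wild-type early prophase sum. No gene of these lists was at 0 in all 4 knockout libraries, and the part of these cell types in the results below was not tested. Of the targeted genes, Psmc3ip, the gene of Hop2, was at 3.51 and 5.06 in Hop2 KO testes, 22.8 and 26.4 in Prdm9 KO testes, against 197 in wild type. Prdm9 itself was 4.73 and 5.93 in Prdm9 KO testes, 10.7 and 15.03 in Hop2 KO testes, against 6.20 in wild type, and this value checks the Prdm9 label only weakly.

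Psma7 and its germ cell counterpart Psma8 moved in opposite directions. Psma8 (ENSMUSG00000036743) was 9.44 and 13.9 in Prdm9 KO testes, 11.8 and 11.2 in Hop2 KO testes, against 79.3 in wild type. All 4 knockout libraries lay well below wild type and those of the 2 genotypes overlapped. Psma8 fell by 2.68 on the log2 scale in Prdm9 KO (SE 0.26, limma adjusted p = 0.00251) and by 2.69 in Hop2 KO (SE 0.26, limma adjusted p = 0.00246).

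Psma7 (ENSMUSG00000027566), the constitutive subunit at that place of the alpha ring, was 305 and 303 in Prdm9 KO testes, 351 and 363 in Hop2 KO testes, against 63.7 in wild type. Every knockout library stood above wild type, and both Hop2 KO libraries stood above both Prdm9 KO libraries. Psma7 rose by 2.24 in Prdm9 KO (SE 0.10, limma adjusted p = 0.000368) and by 2.47 in Hop2 KO (SE 0.10, limma adjusted p = 0.000283). It was, on the mean of both comparisons, the member of the alpha ring with the largest rise.

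Within a library the 2 genes can be set against each other as a ratio, from which a factor common to the whole library drops out, as with rescaled columns and median-ratio scaling but not with quantile normalization. Psma8 made up 3.00% and 4.40% of the sum of Psma7 and Psma8 in Prdm9 KO (3.70 ± 0.987%, SD, n = 2), 3.24% and 2.99% in Hop2 KO (3.12 ± 0.177%, SD, n = 2), against 55.4% in the wild-type library. Psma7 was thus 21.7 to 32.4 times Psma8 in the knockouts and 0.804 times Psma8 in wild type. The sum of both was 314 to 374 in the knockouts and 143 in wild type. No replicate of wild type exists to give its share an error, but the wild-type share lay far outside the range of the 4 knockouts. The table lists 1 transcript for Psma8, and how reads that both genes could have given were divided is unknown here.

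**Figure D2:**
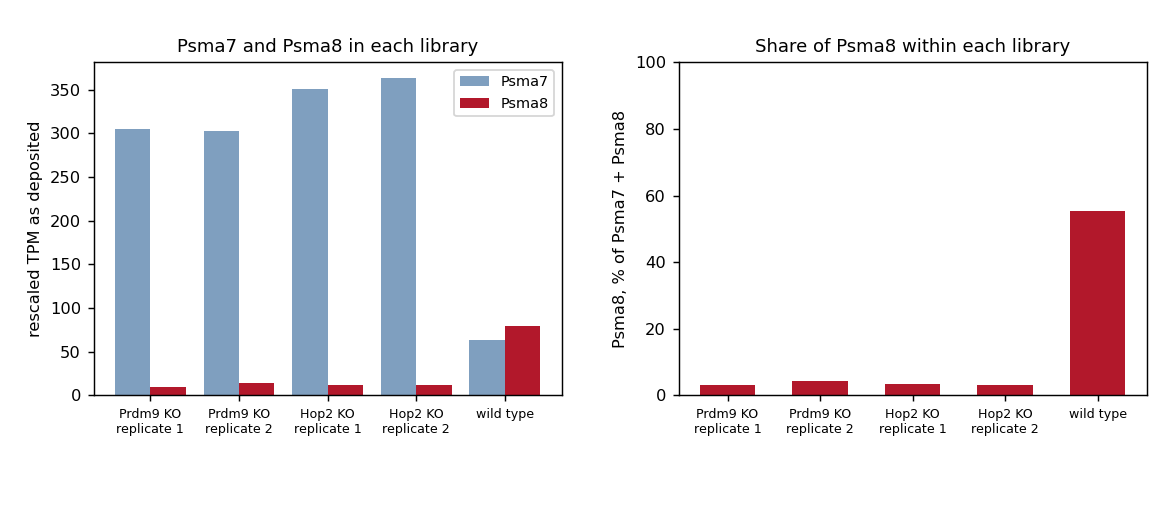
Left, values of Psma7 and Psma8 in each of the 5 libraries (rescaled TPM as deposited). Right, Psma8 as a percentage of Psma7 plus Psma8 in each library. The share is 2.99 to 4.40% in the 4 knockout libraries and 55.4% in wild type.

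The other alpha subunits, which form the gated outer rings of the core, did not move together. Of the 7 constitutive alpha genes, 4 rose and 1 fell in Prdm9 KO, and 5 rose and 1 fell in Hop2 KO. Of all genes, 34.6% rose and 39.4% fell in Prdm9 KO, and 35% and 39.5% in Hop2 KO. Psma6 was 184.5 and 160 in Prdm9 KO testes, 215.5 and 197 in Hop2 KO testes, against 806 in wild type. It was below wild type in every knockout library and fell by 2.22 in Prdm9 KO (SE 0.15, limma adjusted p = 0.000987) and by 1.96 in Hop2 KO (SE 0.15, limma adjusted p = 0.00128). Psma2 took the other direction, at 70.5, 69.7, 81.0 and 84.6 in the knockouts and 27.5 in wild type, and rose by 1.32 and 1.56 (SE 0.09 in both, limma adjusted p = 0.00101 and 0.000665). Psma3 was 79.55 and 93.1 in Prdm9 KO testes, 101 and 137 in Hop2 KO testes, against 125 in wild type. Its knockout values lay on both sides of wild type, and its changes of -0.53 and -0.08 did not pass (limma adjusted p = 0.119 and 0.779) and were positive with rescaled columns. Psma1, Psma4 and Psma5 had changes of 0.16 to 1.17, of which that of Psma4 in Prdm9 KO did not pass (limma adjusted p = 0.177).

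The constitutive beta genes include the catalytic subunits Psmb5, Psmb6 and Psmb7. Of 7, 3 rose and 1 fell in Prdm9 KO, and 5 rose and 0 fell in Hop2 KO, and of the catalytic subunits only Psmb5 in Hop2 KO was among those that rose. In both knockouts 6 rose and 0 fell with rescaled columns, where 51.7% of all genes rose in Prdm9 KO and 49.7% in Hop2 KO. With quantile normalization 7 rose and 0 fell, where 49.8% and 49.7% of all genes rose. Psmb3, a structural beta subunit, was 369 and 313 in Prdm9 KO testes, 393 and 360 in Hop2 KO testes, against 139 in wild type. It rose by 1.28 (SE 0.16, limma adjusted p = 0.00473) and 1.43 (SE 0.16, limma adjusted p = 0.00347). Psmb2, also structural, stood at 237, 199, 249 and 231 in the knockouts against 98.9 in wild type and rose by 1.13 and 1.27 (SE 0.16 in both, limma adjusted p = 0.00605 and 0.00432).

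Psmb6, which carries the caspase-like site, was 355 and 289 in Prdm9 KO testes, 376.5 and 355 in Hop2 KO testes, against 502 in wild type. All knockout values were below wild type as deposited, with a fall of 0.64 that passed in Prdm9 KO (SE 0.18, limma adjusted p = 0.0388) and a change of -0.45 that did not in Hop2 KO (limma adjusted p = 0.0899), but the sign was positive with rescaled columns and with quantile normalization. Psmb7, the trypsin-like subunit, was 214, 194, 235 and 238 against 197 and did not pass in either knockout (0.05 and 0.26, limma adjusted p = 0.729 and 0.113). Psmb1, Psmb4 and Psmb5 had changes of 0.31 to 1.26, of which those of Psmb4 and Psmb5 in Prdm9 KO did not pass.

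Psmb10, the inducible subunit that replaces Psmb7 in the immunoproteasome, was 90.9 and 67.9 in Prdm9 KO testes, 94.6 and 85.4 in Hop2 KO testes, against 18.0 in wild type. The 4 knockout libraries were all several times above wild type, and Psmb10 rose by 2.07 (SE 0.22, limma adjusted p = 0.0030) and 2.26 (SE 0.22, limma adjusted p = 0.00234). The 2 inducible subunits outside the family as chosen here stood the same way, with Psmb8 at 18.6 to 21.2 in the knockouts and 2.89 in wild type and Psmb9 at 9.84 to 13.3 against 1.67. Most markers of macrophages, Sertoli cells, Leydig cells and spermatogonia moved in the same direction, as given above. The part of any of these cell types was not tested.

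Among the ATPases of the regulatory particle, which form a ring of 6 different subunits in the complex, the levels came apart in wild type. Psmc3 was 196 and 180 in Prdm9 KO testes, 204 and 216 in Hop2 KO testes, against 1194 in wild type, the highest wild-type value of all members. Psmc3 fell by 2.66 (SE 0.12, limma adjusted p = 0.000406) and by 2.50 (SE 0.12, limma adjusted p = 0.000464). Psmc2 was 88.1, 84.1, 98.9 and 102 in the knockouts and 474 in wild type.

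Psmc2 fell by 2.45 and 2.23 (SE 0.09 in both, limma adjusted p = 0.000244 and 0.00031). Of the other 4 ATPases, 1 rose and 1 fell in Prdm9 KO, and 2 rose and 0 fell in Hop2 KO. Psmc6 was 42.5 and 47.8 in Prdm9 KO testes, 47.4 and 52.6 in Hop2 KO testes, against 30.1 in wild type, and it rose by 0.57 and 0.71 (SE 0.13 in both, limma adjusted p = 0.0246 and 0.0134). Psmc4 was 133.5, 109, 135 and 131 against 85.4, with a change of 0.49 in Prdm9 KO that did not pass (limma adjusted p = 0.057) and a rise of 0.63 in Hop2 KO (limma adjusted p = 0.0296). Psmc1 did not pass in either knockout (0.20 and 0.41). Psmc5 fell in Prdm9 KO (-0.68) and not past the threshold in Hop2 KO (-0.45), and its sign turned in other scalings.

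The same unevenness can be read inside each library, where no scaling between libraries enters. Among the 6 ATPase genes the highest level was 3.77 to 4.62 times the lowest in the 4 knockout libraries and 39.7 times in wild type, with Psmc3 highest and Psmc6 lowest in all 5. The SD of their log2 levels was 0.65 to 0.75 in the knockouts and 1.90 in wild type. Among the 14 constitutive core genes the highest was 4.70 to 6.48 times the lowest in the knockouts (Psmb4 over Psma2) and 29.3 times in wild type (Psma6 over Psma2). The 11 other regulatory particle genes spanned 4.28 to 5.15 times in the knockouts and 14.5 times in wild type. In each of the 3 sets the single wild-type library lay outside the range of the 4 knockout libraries. These spreads restate the same values as the changes given for single genes, and they were not computed for other gene sets.

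Of the 11 non-ATPase subunits of the regulatory particle, 3 rose and 3 fell in each knockout. With rescaled columns 9 rose and 1 fell in Prdm9 KO and 8 and 1 in Hop2 KO, and with quantile normalization 10 and 1 in both. Of all genes, 51.7% and 49.7% rose with rescaled columns in Prdm9 KO and Hop2 KO, and 49.8% and 49.7% with quantile normalization. Psmd8, a lid subunit, was 174 and 157 in Prdm9 KO testes, 185 and 193 in Hop2 KO testes, against 509 in wild type. All 4 knockout libraries were lower, and Psmd8 fell by 1.62 (SE 0.12, limma adjusted p = 0.00124) and 1.43 (SE 0.12, limma adjusted p = 0.00163). Psmd14, the deubiquitinating enzyme of the lid, was 63.1, 62.8, 72.6 and 69.3 in the knockouts and 35.1 in wild type. It rose by 0.82 and 0.99 (SE 0.09 in both, limma adjusted p = 0.00323 and 0.00198).

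Psmd7, the partner of Psmd14 in the lid, was 162.5 and 141 in Prdm9 KO testes, 189.5 and 183 in Hop2 KO testes, against 109 in wild type, a rise of 0.47 and 0.77 (SE 0.13 in both, limma adjusted p = 0.0368 and 0.00994). Psmd2, the large scaffold of the base, was 292, 271, 311 and 285 against 451.5 and fell by 0.68 and 0.60 as deposited (SE 0.13 in both, limma adjusted p = 0.0142 and 0.0200), but its sign was positive with rescaled columns and with quantile normalization. Psmd1 rose in both knockouts (0.60 and 0.62). Psmd11 fell as deposited (-0.45 and -0.54) with a sign that turned in other scalings. Psmd3, Psmd4, Psmd6, Psmd12 and Psmd13 did not pass in either knockout, with changes of -0.32 to 0.20. All 5 passed as higher in both knockouts with rescaled columns (0.61 or more) and with quantile normalization (0.75 or more), and the sign of Psmd4, Psmd6, Psmd12 and Psmd13 turned in at least 1 knockout.

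The 4 alternative caps divided into pairs. Psme1 and Psme2, the partners of the interferon-inducible PA28 alpha-beta ring, rose. Psme1 was 133 in each Prdm9 KO library, 147 and 163 in Hop2 KO testes, against 21.2 in wild type, and rose by 2.59 and 2.81 (SE 0.11 in both, limma adjusted p = 0.000317 and 0.000254). Psme2 was 129 and 108 in Prdm9 KO testes, 149 and 134 in Hop2 KO testes, against 19.1 in wild type, and rose by 2.56 and 2.82 (SE 0.16 in both, limma adjusted p = 0.000857 and 0.000665). These partners had the highest rises of all members.

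Psme4, the gene of PA200, was 22.4 and 22.55 in Prdm9 KO testes, 25.3 and 21.3 in Hop2 KO testes, against 191 in wild type. The knockouts lay within a narrow band below wild type, and Psme4 fell by 3.03 and 2.99 (SE 0.14 in both, limma adjusted p = 0.000415 and 0.000423). Psme3, which forms the nuclear PA28 gamma cap, was 78.2, 76.8, 89.0 and 77.7 in the knockouts and 206 in wild type. It fell by 1.40 and 1.30 (SE 0.12 in both, limma adjusted p = 0.00188 and 0.0022) as deposited, and remained below wild type in every scaling without passing in all of them.

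Psmf1, the gene of PI31, a protein named for its inhibition of the core in vitro, had the largest change of all members. It was 33.3 and 27.2 in Prdm9 KO testes, 34.1 and 30.9 in Hop2 KO testes, against 1102 in wild type. Wild type was 35.1 times the mean of the knockouts. The log2 change of Psmf1 was -5.15 in Prdm9 KO (SE 0.17, limma adjusted p = 0.000155) and -5.04 in Hop2 KO (SE 0.17, limma adjusted p = 0.000165). The spermatid, pachytene and early meiotic prophase marker sums were lower in the same libraries, as given above, and their part in this change was not tested.

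The 7 assembly chaperones are factors that help build the core or the base and leave the finished complex. In Prdm9 KO 2 rose and 2 fell, and in Hop2 KO 4 rose and 2 fell. With rescaled columns and with quantile normalization 5 rose and 0 fell in both knockouts, where between 49.7% and 51.7% of all genes rose. Psmg3, a chaperone of the alpha ring, was 35.05, 29.3, 36.2 and 37.4 in the knockouts and 13.7 in wild type, a rise of 1.17 and 1.36 (SE 0.15 in both, limma adjusted p = 0.00512 and 0.00335). Psmd5, which holds back the base until it is complete, was 41.8, 41.15, 41.9 and 46.3 against 18.8, a rise of 1.10 and 1.19 (SE 0.11 in both, limma adjusted p = 0.00274 and 0.00224). These 2 stood above wild type in every knockout library.

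Psmg2 was 26.4, 31.0, 30.0 and 34.9 in the knockouts and 55.0 in wild type and fell by 0.92 and 0.75 as deposited (SE 0.17 in both, limma adjusted p = 0.0127 and 0.0219), with a sign that turned in another scaling. Psmd9 was 66.2, 55.0, 65.9 and 63.5 against 96.1 and fell by 0.66 and 0.56 as deposited (SE 0.15 in both, limma adjusted p = 0.0218 and 0.0331), with a positive sign after rescaling or quantile normalization. Psmd10, Psmg1 and Psmg4 had changes of 0.20 to 0.52, of which those of Psmd10 and Psmg1 passed in Hop2 KO.

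**Figure D3:**
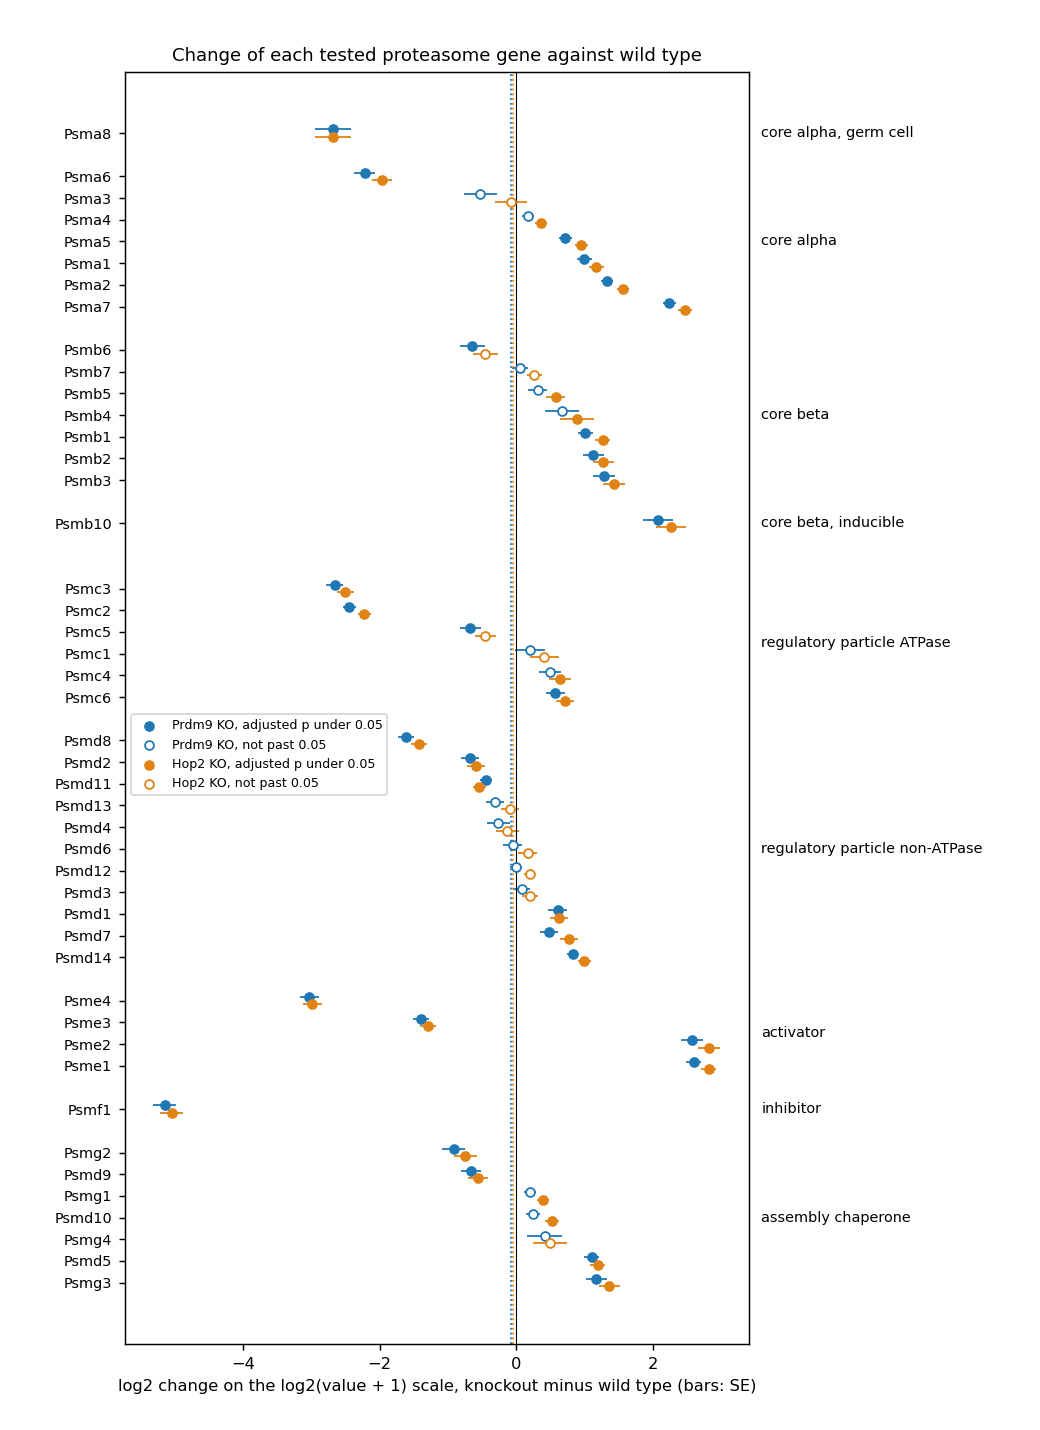
Log2 change of the 45 tested members on the log2(value + 1) scale, knockout minus wild type, with standard errors as bars. Filled points passed an adjusted p of 0.05 and open points did not. Dotted lines mark the median of all genes (-0.08 and -0.06). The points run from -5.15 for Psmf1 to 2.82 for Psme2, and the 2 knockouts, which share the wild-type library, lie side by side.

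Added up, the 46 members made 0.678 to 0.75% of the column sum in the knockouts and 0.543% in wild type. As deposited, the sums were 5592 to 6727 in the knockouts and 8809 in wild type, so the direction of the total depended on the scaling. Listed pseudogene and duplicate copies of members, such as Psmb6-ps and Psme2b, were at 1.11 or less in every library.

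For 6 members the transcript that was most abundant in wild type was the most abundant in none of the 4 knockout libraries, out of 46 members with 233 listed transcripts. Among genes tested that list 2 or more transcripts this is 6 of 40 members (15%), where 19.9% of all 12581 such genes did so, a share near the background. The 6 are Psma3, Psma6, Psmd8, Psmd11, Psme3 and Psmg4. Transcript values are estimates from short reads, and their structure is not described here. In Psma6, ENSMUST00000163070 was 466 in wild type, 57.8% of the gene, and 0.17 or less in every knockout library. The other main transcript of Psma6, ENSMUST00000021412, was 180, 151, 215 and 195 in the knockouts and 339 in wild type. The larger part of the difference in Psma6 thus lay in a transcript near 0 in the knockouts.

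Psmd8 differed most completely. ENSMUST00000182328 made 91.4 to 93.6% of the gene in the knockouts and 0.00108% in wild type. In wild type ENSMUST00000186182 made 68.9% and ENSMUST00000059642 29.7%, against 5.09 to 6.502% and 0.198 to 1.05% in the knockouts. No overlap between knockouts and wild type was present for any of these 3 transcripts.

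In Psme3, ENSMUST00000019470 made 93.0 to 98.8% of the gene in the knockouts and 24.7% in wild type. Its value, 77.2, 71.4, 85.8 and 76.0 in the knockouts, was 50.7 in wild type. The lower gene value of Psme3 in the knockouts was thus not shared by this transcript. ENSMUST00000131170 (60.2 in wild type, 29.3% of the gene) and ENSMUST00000151385 (59.7, 29.1%) were at 0.142 or less in the knockouts.

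Psmd11 was led by ENSMUST00000173938 in wild type (55.9%) and by ENSMUST00000017572 in the knockouts (41.9 to 49.4%). Psmg4 moved less, with ENSMUST00000124996 at 54.9% in wild type and 35.1 to 46.0% in the knockouts. In Psma3, ENSMUST00000160864 was 0.723% and 14.7% of the gene in Prdm9 KO, 0.778% and 31.7% in Hop2 KO, against 38.4% in wild type, so that replicates of a genotype differed widely.

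In 3 further members, chosen after their values were seen, a transcript differed widely between the knockouts and wild type. ENSMUST00000151656 of Psmf1 was 506 in wild type, 45.9% of the gene, and 0.184 or less in the knockouts. The leading transcript of Psmf1, ENSMUST00000109869, was 24.3, 19.1, 24.8 and 22.1 in the knockouts and 578.5 in wild type, so both were far lower. ENSMUST00000163610 of Psmd13 was 27.0 to 40.65 in the knockouts and 0.0130 in wild type. The leading transcript of Psmd13 in wild type, ENSMUST00000026560 (72.6% of the gene), made 30.4 to 43.15% in the knockouts, where ENSMUST00000166889 was above it in Prdm9 KO replicate 1 and Hop2 KO replicate 2. ENSMUST00000171900 of Psma4 was 3.37 to 3.92 in the knockouts and 29.3 in wild type, 2.81 to 3.315% of the gene against 28.7%.

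**Figure D4:**
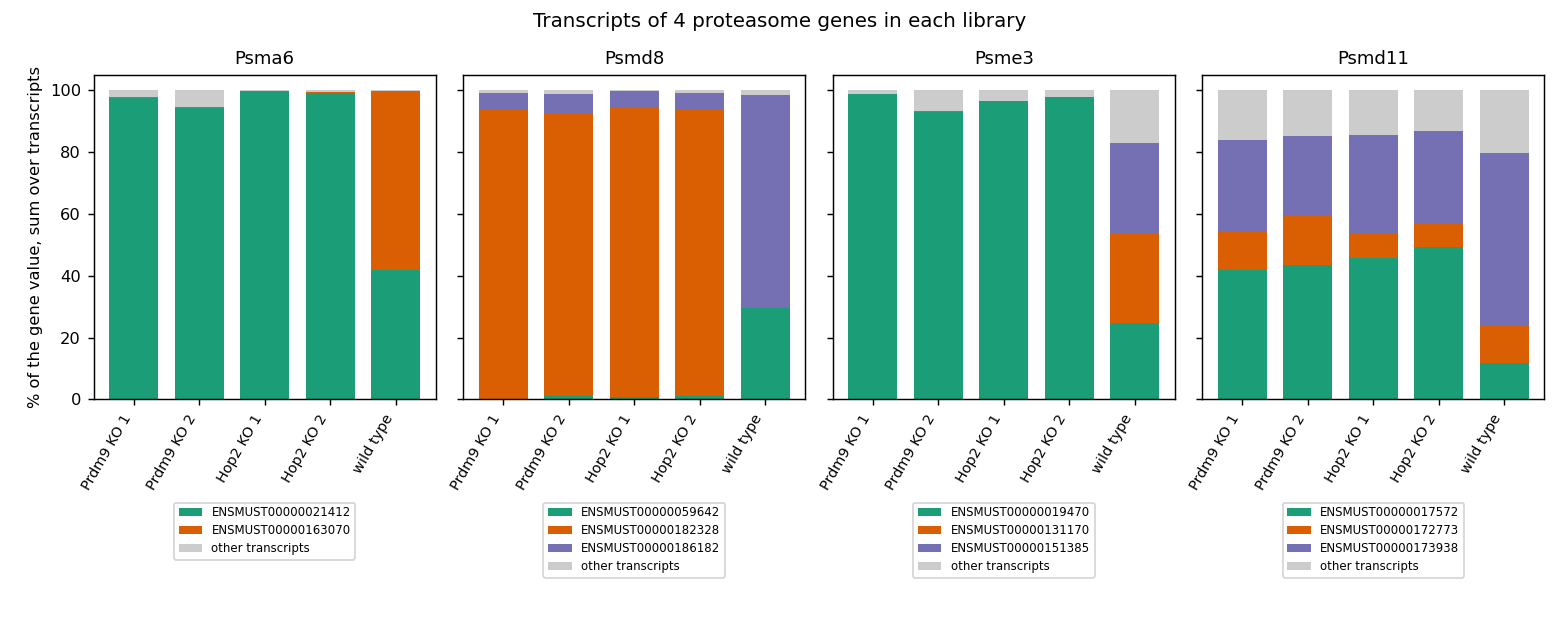
Share of each gene value held by the transcripts that reach 15% in a library, for Psma6, Psmd8, Psme3 and Psmd11 in the 5 libraries, with all other transcripts in grey (y axis, percent of the sum over transcripts). The wild-type bar differs from the 4 knockout bars in each gene. In Psmd8 a transcript at 91.4 to 93.6% in the knockouts is at 0.00108% in wild type.

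Between the knockouts no member passed. Of 45 tested members 0 rose and 0 fell in Prdm9 KO against Hop2 KO (limma, Benjamini-Hochberg), where 0.0139% of 14358 genes rose and 0% fell. The members' counts were also 0 and 0 with rescaled columns (0.0205% of all genes rose), quantile normalization (0.0133%) and median-ratio scaling (0.0139%). At an unadjusted p under 0.05 there were 0 members and 445 genes. The members' median change was -0.19 against -0.03 over all genes, and -0.07 against 0.08 with rescaled columns. It was -0.10 against -0.01 with quantile normalization and -0.18 against -0.03 with median-ratio scaling. As deposited, both Prdm9 KO libraries lay below both Hop2 KO libraries for 26 of 45 members, where 21% of all genes did so. They lay above them for 1, Psmd11, where 11.9% did. The deposited columns sum to less in Prdm9 KO (873316 and 825459) than in Hop2 KO (896480 and 953598). The count of libraries without overlap was not made in another scaling, so the part of that scale in it was not tested. By itself it does not establish a difference of the proteasome between the genotypes. A p that misses the threshold does not show that the genotypes are alike.

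The 5 members with the smallest unadjusted p were Psmd10, Psma3, Psmd7, Psma2 and Psma5, all lower in Prdm9 KO than in Hop2 KO. Psmd10, also known as gankyrin, was 23.1 and 22.5 in Prdm9 KO and 27.55 and 28.2 in Hop2 KO (-0.28, SE 0.11, limma adjusted p = 0.972). The difference was -0.45 for Psma3 (SE 0.19), -0.30 for Psmd7 (SE 0.13), -0.24 for Psma5 (SE 0.11) and -0.24 for Psma2 (SE 0.11), with the same limma adjusted p of 0.972. In all 5 both Prdm9 KO libraries lay below both Hop2 KO libraries as deposited, as in 26 of 45 members and 21% of all genes. The 5 were chosen by their p in the same libraries, so this lack of overlap adds no support. The authors' deposited table of their gene test lists all 46 members, of which 3 have p under 0.05 and 0 have q under 0.05, among 835 of 21263 genes with p under 0.05. In the authors' deposited table these 3 are Psma3 (p = 0.0353), Psmd10 (p = 0.0396) and Psmd7 (p = 0.0412), and the compared groups are not named there.

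Genes that work with the proteasome were also uneven. Of 12 cofactors found and tested, 6 rose and 2 fell in Prdm9 KO and 7 rose and 2 fell in Hop2 KO. Of all genes, 34.6% rose and 39.4% fell in Prdm9 KO, and 35% and 39.5% in Hop2 KO. The cofactors had medians of 0.33 and 0.52, against -0.08 and -0.06 over all genes. Txnl1, a thioredoxin bound to the regulatory particle, was 36.03, 32.1, 42.0 and 34.7 in the knockouts and 17.9 in wild type and rose by 0.89 and 1.05 (limma adjusted p = 0.0146 and 0.0091). Zfand2a, a stress-induced regulatory particle partner, rose by 0.92 and 0.95 (limma adjusted p = 0.00485 and 0.00433). Akirin2, which carries proteasomes into the nucleus, was 41.4, 37.9, 46.0 and 41.0 against 172 and fell by 2.09 and 1.96 (limma adjusted p = 0.000776 and 0.000876). Uchl5, a deubiquitinase of the regulatory particle, was 22.95, 34.05, 26.1 and 42.6 against 63.3 and did not pass (-1.15 and -0.90, limma adjusted p = 0.071 and 0.122). Pomp, the maturation factor of the core, named after its values were seen, was 176, 168, 193 and 221 against 97.9 and rose by 0.80 and 1.07 (limma adjusted p = 0.00909 and 0.00421).

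Of 13 ubiquitin receptors and unfolding factors, 4 rose and 7 fell in Prdm9 KO and 4 rose and 8 fell in Hop2 KO. Their medians were -0.72 in both, against -0.08 and -0.06 over all genes. Ubqlnl, a ubiquilin-like gene, was 0.103 or less in the knockouts and 288 in wild type, and it fell in both knockouts (limma adjusted p = 1.74e-05 and 1.75e-05). Ubqln2, the ubiquilin of many tissues, rose instead, at 81.2, 66.4, 83.2 and 64.9 against 16.9 (2.05 in both, limma adjusted p = 0.00327 and 0.00319). Nsfl1c, a cofactor of the unfolding ATPase Vcp, rose by 0.80 and 0.87 (limma adjusted p = 0.0153 and 0.0119).

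Of 9 known regulators of proteasome genes, 6 rose and 1 fell in Prdm9 KO and 7 rose and 1 fell in Hop2 KO. Their medians were 1.04 and 0.99, against -0.08 and -0.06 over all genes. Nfe2l2, the transcription factor of the oxidative stress response, was 55.9, 52.75, 58.6 and 63.3 in the knockouts and 12.3 in wild type and rose by 2.05 and 2.22 (limma adjusted p = 0.000556 and 0.000451). Foxo3 was 91.6, 81.75, 91.0 and 70.6 against 20.8 and rose by 2.01 and 1.90 (limma adjusted p = 0.00256 and 0.00289). Nfe2l1, which drives proteasome gene expression when proteasomes are inhibited, named after its values were seen, was 216, 220, 211 and 235 against 70.1 and rose by 1.62 and 1.66 (limma adjusted p = 0.00116 and 0.00109). Ngly1, the deglycosylating enzyme that NFE2L1 needs for its activity, was 22.6, 20.1, 26.1 and 21.2 against 217 and fell by 3.29 and 3.15 (limma adjusted p = 0.000586 and 0.000638). Nfya did not pass (-0.08 and -0.25), and its sign was positive with rescaled columns.

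Of 7 ubiquitin and ubiquitin-activating genes, 2 rose and 2 fell in each knockout, beside the shares of all genes given above. Ubb, a polyubiquitin gene, was 3184, 2488, 3275 and 2701 in the knockouts and 9788 in wild type and fell by 1.80 and 1.72 (limma adjusted p = 0.0344 and 0.0383). Uba1y, the activating enzyme gene of the Y chromosome, rose by 1.40 and 1.31 (limma adjusted p = 0.0041 and 0.00482), and Uba6 did not pass (1.21 and 1.13, limma adjusted p = 0.0806 and 0.0938).

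Meiotic breaks were then examined at the start sites of the members. In SSDS, single-stranded DNA bound by the strand exchange protein DMC1 is recovered and sequenced. In mice without PRDM9, breaks are known to form at promoters and other sites of trimethylated histone H3 lysine 4. The Prdm9 K/K library holds 17731 peaks and 2652951 distinct fragments (9397213 with repeats of a position), and the peak list carries no height. A promoter entry of RefSeq (GRCm38.p6) was matched for 38 of 46 members. It was not matched for Psma8, Psmb1, Psmb2, Psmb7, Psmc3, Psmd3, Psmd7 and Psmg2.

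A peak lay within 1000 bases of a start for 30 of 38 members (78.9%, exact Clopper-Pearson 95% interval 62.7 to 90.4%). The share was 35.8% among 27025 genes with a promoter entry and 62.7% among the 11538 of these that had a mean of at least 1 in mRNA. Without Psmb11, which did not reach that mean, it was 30 of 37 members (81.1%, exact 95% interval 64.8 to 92%). At 500 bases it was 29 of 37 (78.4%, exact 95% interval 61.8 to 90.2%) against 62.3%. The members were not matched to these genes on expression level, and a difference from the expressed genes was not tested. The median number of distinct fragments within 1000 bases of a start was 25 over the members (quartiles 10 and 53.2), 4 over all genes and 17 over the expressed genes. There was 1 K/K library and no control library, so these numbers have no replicate check. The intervals treat the members as independent draws, although they are a fixed gene family. They measure no variation between libraries or animals and are no test against the other genes.

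Psmc2 had the most fragments, 124 at its upstream start, inside a peak of 4639 bases that also covers its other start. Psmd14 (102), Psmc6 (100), Psmd11 (97) and Psmd6 (94) followed. The 8 members with no peak that close were Psma7, Psmb11, Psmd9, Psmd12, Psme3, Psmf1, Psmg1 and Psmg3, with 1 to 10 fragments each. Psme1 (5), Psmb10 (7) and Psmd4 (10) lay in the same range although a peak was within 1000 bases. Psma7, with 4 fragments, lay 76247 bases from the nearest peak and Psmf1, with 9, lay 69827 bases from it. Psme4 had a peak over its start with 73 fragments, so members that fell strongly in the knockouts were found on both sides. Psma6 has 2 starts in the table, of which the upstream one had 0 fragments and the downstream one a peak with 27.

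The promoters of 5 members are shown because they span this range, from starts without a peak (Psma7, Psmf1 and the upstream start of Psma6) to those inside one (the downstream start of Psma6, Psmc2 and Psme4). Each runs from 250 bases before to 50 bases after the start on the strand of the gene, 5′ to 3′, from RefSeq on GRCm38.p6. Capitals mark CCAAT boxes on either strand (CCAAT or ATTGG) and, in Psme4, an antioxidant response element (TGACNNNGC, here on the opposite strand). They are Psma7 (chr2:180042415-180042714, minus strand), Psmf1 (chr2:151741261-151741560, minus strand), Psma6 upstream (chr12:55383972-55384271, plus strand), Psma6 downstream (chr12:55398575-55398874, plus strand), Psmc2 upstream (chr5:21785025-21785324, plus strand) and Psme4 (chr11:30771525-30771824, plus strand).
Psma7: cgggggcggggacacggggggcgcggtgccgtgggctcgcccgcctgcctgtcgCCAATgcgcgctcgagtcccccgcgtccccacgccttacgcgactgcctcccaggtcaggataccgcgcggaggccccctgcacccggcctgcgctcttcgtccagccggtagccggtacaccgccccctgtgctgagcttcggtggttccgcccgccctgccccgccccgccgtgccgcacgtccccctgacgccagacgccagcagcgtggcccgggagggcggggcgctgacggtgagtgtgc
Psmf1: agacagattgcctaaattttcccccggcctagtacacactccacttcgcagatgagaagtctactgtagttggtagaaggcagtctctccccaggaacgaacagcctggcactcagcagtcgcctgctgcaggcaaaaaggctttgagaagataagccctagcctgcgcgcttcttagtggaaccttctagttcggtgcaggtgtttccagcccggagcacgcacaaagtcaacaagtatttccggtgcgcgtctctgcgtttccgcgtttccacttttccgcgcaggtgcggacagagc
Psma6 upstream: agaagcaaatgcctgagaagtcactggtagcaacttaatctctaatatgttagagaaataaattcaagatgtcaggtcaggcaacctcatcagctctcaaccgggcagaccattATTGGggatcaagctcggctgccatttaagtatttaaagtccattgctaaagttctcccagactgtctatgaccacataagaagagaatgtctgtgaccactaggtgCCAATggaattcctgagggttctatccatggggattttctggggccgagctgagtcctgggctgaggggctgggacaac
Psma6 downstream: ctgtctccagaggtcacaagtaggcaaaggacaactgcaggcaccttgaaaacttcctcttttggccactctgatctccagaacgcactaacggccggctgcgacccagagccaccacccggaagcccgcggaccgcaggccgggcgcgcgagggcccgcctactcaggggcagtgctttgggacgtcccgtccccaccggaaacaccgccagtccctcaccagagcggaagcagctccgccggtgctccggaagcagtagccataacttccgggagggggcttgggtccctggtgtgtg
Psmc2 upstream: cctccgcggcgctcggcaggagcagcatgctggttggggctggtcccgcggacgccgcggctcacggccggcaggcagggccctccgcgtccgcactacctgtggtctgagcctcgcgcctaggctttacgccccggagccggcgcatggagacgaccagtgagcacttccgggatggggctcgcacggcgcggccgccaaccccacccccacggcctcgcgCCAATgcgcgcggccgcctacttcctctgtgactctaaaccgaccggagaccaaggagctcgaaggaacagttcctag
Psme4: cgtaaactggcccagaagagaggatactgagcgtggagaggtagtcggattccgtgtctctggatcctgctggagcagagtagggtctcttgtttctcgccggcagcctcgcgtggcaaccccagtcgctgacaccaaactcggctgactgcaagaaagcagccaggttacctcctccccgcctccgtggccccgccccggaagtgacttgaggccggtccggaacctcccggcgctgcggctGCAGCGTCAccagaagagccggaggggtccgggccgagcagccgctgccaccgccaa

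Among these, the start of Psma6 with no fragments holds a CCAAT box on each strand, 29 and 136 bases before the start, whereas its downstream start holds none of the motifs searched. Psma7 holds a CCAAT box 196 bases and Psmc2 one 28 bases before the start. The element of Psme4 begins 7 bases before the start. Over the members, the antioxidant response element (TGACNNNGC, both strands) was found in 6 of 38, or 15.8%, against 14% of all 27025 genes, and in 6 of the 37 tested members, or 16.2%, against 16.6% of the expressed genes. It was in Psmb5, Psmb6, Psmc6, Psmd9, Psmd12 and Psme4. The CCAAT box (CCAAT, both strands) was found in 13 of 38, or 34.2%, against 41.1% of all genes, and in 12 of the 37, or 32.4%, against 42.7% of the expressed genes. The cAMP response element (TGACGTCA, the same on both strands) was in 0 of 38, against 2.03% and 3.3%. A match is a description of letters and shows no binding.

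**Figure D5:**
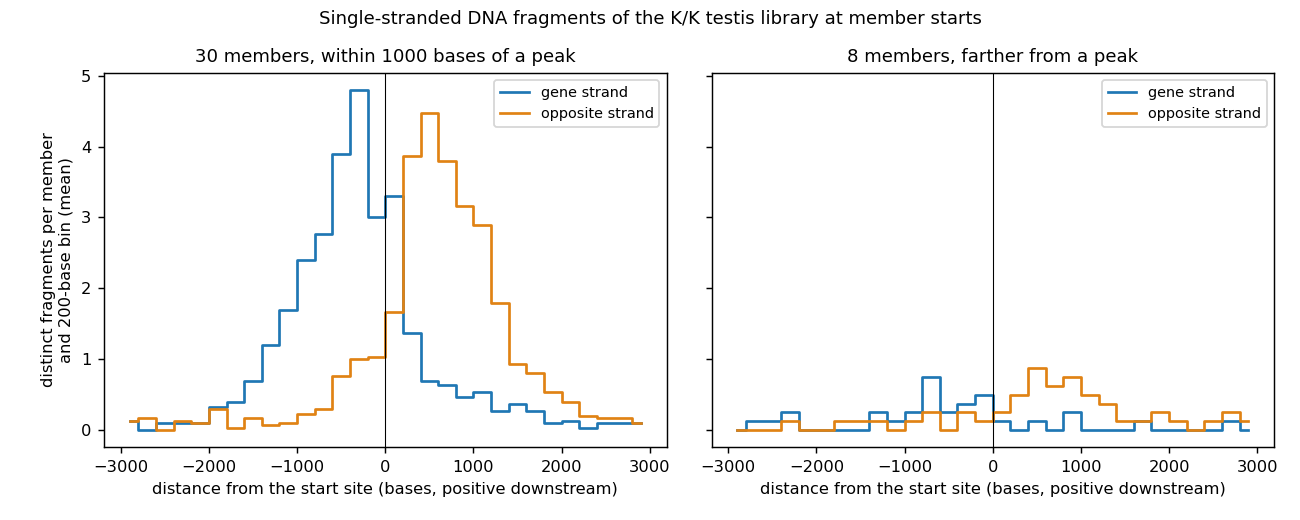
Mean number of distinct single-stranded DNA fragments of the K/K library per member and 200-base bin (y axis) by distance from the start site (x axis, bases, positive downstream), for the 30 members within 1000 bases of a peak (left) and the 8 farther away (right). Blue is the strand of the gene and orange the opposite strand. On the left the strand of the gene peaks at 4.8 upstream of the start and the opposite strand at 4.47 downstream.

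At the 30 members with a peak the fragments were divided by strand around the start. Those on the strand of the gene were densest 400 to 200 bases before it, with a mean of 4.8 per member, and those on the opposite strand 400 to 600 bases after it, with 4.47. At the 8 other members no bin had a mean above 0.875. The peaks come from this same library, so the difference in density follows from the split by peak. The strand of the gene was highest 800 to 600 bases before the start at these 8, with 0.75. Their opposite strand was highest 400 to 600 bases after it, with 0.875. No profile over all genes was made. The mRNA and break libraries come from different genotypes, and no mRNA values of K/K testis were analysed here.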

How the data were processed

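Values of 6 of the 28 samples were used, 5 mRNA libraries and 1 SSDS library, and the other 22 were not analysed here. For mRNA the authors deposited a signal per gene and per transcript, named TPM in the file headers, after a rescaling between libraries whose factors the sources used here do not give. The tools named for these samples per the submitters' processing notes are kallisto, sleuth, CASAVA and MACS2 2.1.0.20150420, with builds GRCm38 and mm10. A deposited table of the authors' gene test gives p-values and q-values. Peaks and fragments are deposited as positions only, and their start and end were turned into 1-based coordinates.

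Genes whose mean over a fit's libraries reached 1 were tested on log2(value + 1) with limma 3.58.1 (intensity trend) in R 4.3.3. Both comparisons with wild type came from 1 fit of all 5 libraries, and the knockouts were compared in a fit of their 4 libraries. Values per library come before each test because depth, and so counting error, is unknown. Shares, peaks and motifs were computed in Python 3.11.15, with a peak counted at 1000 bases or less from any listed start. Fragments count once per position and strand, by their middle. The fit was also run on simulated data in which every library, wild type included, had the same spread. That run could not check whether the lone wild-type library is as variable as the knockouts. Alternatives cover the pseudocount, the filter, the scaling, the trend, the libraries fitted, the replicate block and the peak distance.

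In each role group the text gives each library's value for the members with the 2 highest and 2 lowest mean changes (all where a group has 4 or fewer), and from each list of related genes the 2 highest and 2 lowest, of which some are not reported here. The members and lists were chosen with earlier results of these data known. Ecpas was matched as AI314180, and Shfm1, Paaf1, Ufd1l and H1f6 matched no symbol. All columns of per-sample values belong to a sample (0 do not), and no pair of mRNA libraries shared a value above 0 (0 identical values).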

Additional observations from a re-analysis of the deposited data

How the results depend on the processing

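Read depth is unknown for mRNA, so counting error could not be separated from other spread, and the single wild-type library has no replicate. Of the log2 changes of named members, 700 kept their direction and side of the threshold over the alternatives, 42 no longer passed, 10 passed only there and 20 changed sign. These counts pool all alternatives, and the comparison between the knockouts with those against wild type. Between the knockouts no named member passed, so to keep the side of the threshold there was not to pass. With columns rescaled to 1000000, members higher and lower in Prdm9 KO were 31 and 7 (51.7% and 26.6% of all genes), against 16 and 14 as deposited. With quantile normalization they were 33 and 7 in Prdm9 KO (49.8% and 29.1% of all genes) and 35 and 7 in Hop2 KO (49.7% and 29.3%). The members' median minus that of all genes, 0.27 in Prdm9 KO and 0.44 in Hop2 KO, was 0.34 and 0.49 with rescaled columns, 0.43 in Prdm9 KO with quantile normalization and 0.28 in Prdm9 KO with median-ratio scaling; without 1 library it was 0.29 to 0.32 in Prdm9 KO and 0.45 to 0.48 in Hop2 KO. After rescaling, the log2 changes in Prdm9 KO were 0.26 for Psmd9, 0.40 for Psma3, 0.29 for Psmb6 and 0.25 for Psmd2, and in Hop2 KO 0.24, 0.72, 0.35 and 0.21, with 0.046 for Psmg2. With quantile normalization they were 0.22, 0.48, 0.57 and 0.53 in Prdm9 KO and 0.26, 0.85, 0.59 and 0.46 in Hop2 KO. Both scalings also raise the median of all genes. Psma3 in Hop2 KO was 0.18 with median-ratio scaling and -0.30 to 0.14 without 1 library, positive without Hop2 KO replicate 1, and Psmb7 in Prdm9 KO was -0.023 to 0.12, negative without Prdm9 KO replicate 1; the cause was not tested. Leaving out 1 library kept 24 to 27 of 30 calls in Prdm9 KO and 23 to 30 of 34 in Hop2 KO, with 0 sign changes among them. In Prdm9 KO, leaving out Prdm9 KO replicate 1 or 2 lost 6 calls each, Hop2 KO replicate 1 lost 4 and replicate 2 lost 3. In Hop2 KO, leaving out either Prdm9 KO library lost 4 calls, Hop2 KO replicate 1 lost 11 and replicate 2 lost 9. Same-numbered knockout libraries deviated together (r = 0.41 over 14358 genes), but with 2 pairs and silent labels the numbers do not pair the samples. With the replicate block, 0 members rose and 0 fell between the knockouts, 8 genes passed, and 6 members had an unadjusted p under 0.05. The Psma8 share without 1 library was 3.00 to 4.40% in Prdm9 KO and 2.99 to 3.24% in Hop2 KO. With 2 libraries per genotype these are only the shares of the remaining library, so they add no check. The number of members with a peak was 29 at 500 bases and 30 at 2000. A stricter set of peaks and a Psma8 share over protein-coding transcripts were not run, because the peak list holds no score and the transcript table no biotype.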
